A study of Mus musculus with 15 samples.

Results

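Interleukin-1 signalling was followed through 10 genes, chosen by symbol in the authors' comparison tables of 23359 genes. They encode the ligands Il1a, Il1b and Il18, the antagonist Il1rn, the receptor chains Il1r1, Il1r2 and Il1rap, and the inflammasome parts Nlrp3, Pycard and Casp1. All 10 were found. The leukemia modelled is chronic myeloid leukemia in blast crisis, which mice develop from cells carrying the human oncogenes BCR-ABL and NUP98-HOXA9. Its leukemia stem cells (LSC) were studied. LSC were taken 12 days after leukemia cells had been transplanted, from bone marrow (BM), spleen (SPL), blood (BL) or gonadal fat (AT), and were compared with each other and with counterpart cells from normal marrow (NBM). RNA-seq was made from 3 libraries in every one of the 5 groups, and the animals were females of 3 months. The labels put the oncogene model on the NBM samples too, name no gate for the LSC or for their counterparts, and do not say whether a group's libraries were separate mice. Where they did not, the authors' p-values measure only the spread between those libraries.

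Interleukin-1 alpha and beta are secreted ligands that act through one receptor, made of the signalling chain Il1r1 and its partner Il1rap. Il1rn encodes a protein that occupies that receptor without activating it, and Il1r2 encodes a decoy that binds ligand but lacks a signalling domain. Interleukin-1 beta and interleukin-18 are made as inactive precursors. They are cut by caspase-1 (Casp1) once a sensor such as Nlrp3 and the adaptor ASC (Pycard) have assembled an inflammasome. In blood formation interleukin-1 is known as a signal that drives stem and progenitor cells toward myeloid output. The RNA measured here reports transcripts and not cut or secreted protein.

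All levels are the authors' FPKM, fragments scaled to transcript length and library size, with 1 pooled value per group. The range in brackets after a level gives the authors' lower and upper bounds, 2 SD either side. A fold is the log2 ratio of the group named first to the other, and ± is the standard error (SE) that the authors' test statistic implies. A gene was called where the authors' deposited table gave a test and a q-value (adjusted p) below 0.05. The pooled columns held between 8.96e+06 (SPL) and 1.96e+07 (AT) estimated fragments. Values of single libraries were not analysed here. In such bulk samples fewer cells of a type and less RNA per cell cannot be told apart. Of 8 progenitor markers, Kit stood at 1.64 to 2.93 FPKM in AT, BL and BM LSC, 4.10 in SPL LSC and 10.4 in NBM. Cd34 (39.97) and Flt3 (4.64) were also highest in NBM, whereas Hoxa9 (0.771) and Gata2 (1.78) were lowest there. Meis1 was highest in SPL LSC (14.2), and in BL LSC Ly6a was highest (231) and Myb lowest (0.255).

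Il1a, Il1b, Il1rn and Nlrp3 had their highest levels in fat LSC, as did Il1rap, which was called in none of its comparisons. Of 95 tests of the members over the 10 comparisons, 33 were called in the authors' deposited tables. AT against BM LSC gave 4 members higher and 0 lower of 10 tested, where 22.8% of all 13160 tested genes were called, 7.24% higher and 15.5% lower. This became 6 higher and 0 lower after centring on the median fold of all tested genes and under both other scalings. Those settings raise the folds of all genes in this comparison. The shares of all genes, here and below, are given on the authors' scale only, so rescaled counts have no share beside them. AT against SPL LSC gave 5 higher and 1 lower of 10, where 25.1% of genes were called, 7.2% higher and 17.9% lower. AT against BL LSC gave 3 higher and 0 lower of 10, where 6.52% were called, 4.01% higher and 2.51% lower. AT against NBM gave 4 higher and 0 lower of 9, where 23.4% were called, 7.94% higher and 15.5% lower. These counts share the AT libraries, so they are not separate pieces of evidence.

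Without fat, blood LSC had members above marrow and spleen LSC, and marrow LSC had members below NBM. BL against BM LSC gave 4 higher and 1 lower of 10, per the authors' deposited table, where 33.3% of genes were called, 10.5% higher and 22.8% lower. After centring these members became 5 higher and 0 lower. BL against SPL LSC gave 3 higher and 0 lower of 9, where 33.3% were called, 10.2% higher and 23.1% lower. BL LSC against NBM gave 1 higher and 0 lower of 9, where 34.4% were called, 11.5% higher and 22.9% lower, and 3 higher after centring. BM LSC against NBM gave 0 higher and 5 lower of 9, where 16% were called, 8.17% higher and 7.85% lower. SPL LSC against NBM gave 0 higher and 2 lower of 9, where 12.6% were called, 6.37% higher and 6.19% lower. SPL against BM LSC gave 0 of 10 in Cuffdiff, the authors' testing program, where 2.69% were called, 1.19% higher and 1.5% lower. In that comparison 2 members had an unadjusted p below 0.05, and total count scaling called 2, Il1a and Il1r1, both lower in SPL LSC.

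The authors' scale set the median fold of all tested genes below 0 in the comparisons with AT, at -0.48 against BM, -0.52 against SPL, -0.11 against BL and -0.46 against NBM. It was -0.37 for BL against BM, -0.40 for BL against SPL and -0.36 for BL against NBM. It was 0.12 for SPL against BM, 0.11 for SPL against NBM and -0.03 for BM against NBM. Folds are given on the authors' scale, "after centring" means relative to these medians, and the other scalings equalise total estimated counts or upper quartiles. The medians of the member folds were 1.47, 1.47, 0.67 and 0.48 for AT against BM, SPL, BL and NBM. They were 0.65 for BL against BM, -0.04 for SPL against BM and -0.81 for BM against NBM.

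**Figure D1:**
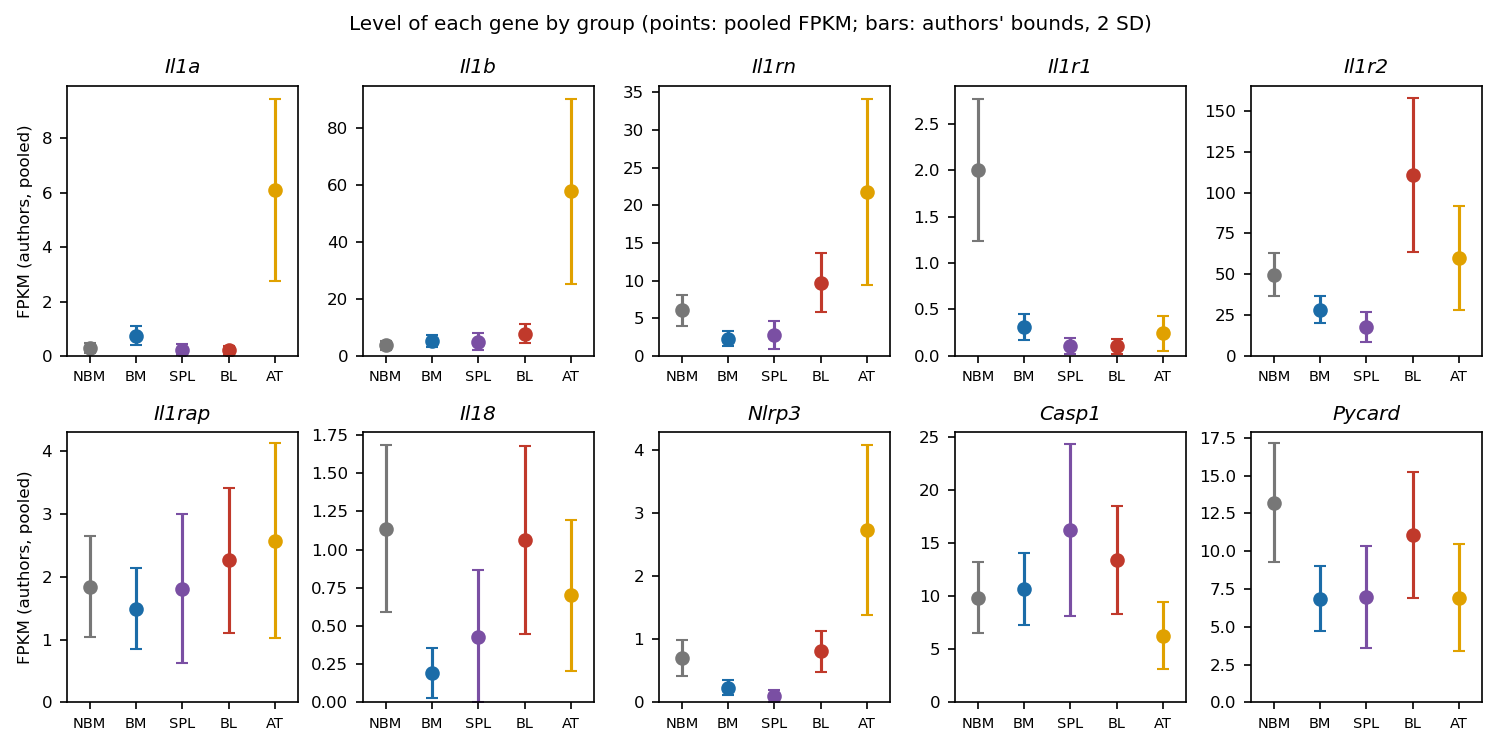
Level of each of the 10 genes in the 5 groups, as the authors' pooled FPKM on a linear axis from 0. Bars are the authors' bounds, 2 SD either side. Il1a, Il1b, Il1rn and Nlrp3 are highest in AT LSC, Il1r2 in BL LSC, and Il1r1 in NBM. Il1rap is also highest in AT LSC, with bounds that overlap in all groups.

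Il1a and Il1b, the activating ligands, were higher in fat than in each other group. Il1b stood at 57.9 FPKM (25.3 to 90.5) in AT LSC, 7.88 (4.40 to 11.4) in BL, 5.30 (3.12 to 7.48) in BM, 4.92 (1.92 to 7.92) in SPL LSC and 3.75 (2.25 to 5.25) in NBM. The lower bound in AT LSC lay above the upper bound of every other group, and the other 4 groups overlapped. In AT LSC 98.1% of genes had a lower FPKM than Il1b, against 83.1% in BM LSC. The folds in the authors' deposited tables were 3.45 ± 0.50 against BM (q 6.41e-10), 3.56 ± 0.60 against SPL (q 1.37e-07), 2.88 ± 0.52 against BL (q 9.59e-07) and 3.95 ± 0.50 against NBM (q 4.59e-13). After centring they were 3.93, 4.07, 2.98 and 4.41. BL against NBM was not called (q 0.0580) but was after centring, at 1.43 (q 0.00760). Among the 4 groups outside fat no pair was called for Il1b in the authors' deposited tables, and the q of neighbours in the order of levels ran from 0.407 (BL and BM) to 0.939 (BM and SPL).

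Il1a was the less abundant of these ligands in all 5 groups. It stood at 6.11 FPKM (2.77 to 9.46) in AT LSC, 0.734 (0.385 to 1.08) in BM, 0.229 (0.0269 to 0.431) in SPL, 0.201 (0.0369 to 0.364) in BL LSC and 0.293 (0.123 to 0.464) in NBM. Only AT LSC was set apart by its bounds from all other groups. The folds in the authors' deposited tables were 3.06 ± 0.52 against BM (q 2.29e-07), 4.74 ± 0.75 against SPL (q 1.63e-08), 4.93 ± 0.71 against BL (q 3.51e-10) and 4.38 ± 0.58 against NBM (q 4.41e-12). BL LSC were lower than BM LSC by a fold of -1.87 ± 0.68 (q 0.0324 in the authors' deposited table), a call that was lost after centring (q 0.115) and under upper quartile scaling (q 0.120). BM against NBM had q 0.0637 in the authors' deposited table. The SPL value rests on 13.0 estimated fragments and the BL value on 30.0. Il1b exceeded Il1a by 7.22 times in BM, 9.47 in AT, 12.8 in NBM, 21.5 in SPL and 39.3 in BL on the FPKM scale.

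The 2 ligand genes lie side by side on mouse chromosome 2 and are both read from the minus strand. Il1a spans 129297370 to 129309972 and Il1b 129364580 to 129375733 in mm10, counted from 1, with 54607 bases between them. Il1rn lies elsewhere on chromosome 2, at 24336860 to 24351491 on the plus strand. The 250 bases before the RefSeq start of Il1a, Il1b and Nlrp3 (GRCm38.p6) are shown because these 3 members were called higher in AT LSC in all 4 comparisons. Capitals mark TATAAA, the letters of a TATA box, and GAGGAA, the core bound by the myeloid factor PU.1, on either strand. They run 5′ to 3′ on the strand of the gene.
Il1a, chr2:129309973-129310222, minus strand: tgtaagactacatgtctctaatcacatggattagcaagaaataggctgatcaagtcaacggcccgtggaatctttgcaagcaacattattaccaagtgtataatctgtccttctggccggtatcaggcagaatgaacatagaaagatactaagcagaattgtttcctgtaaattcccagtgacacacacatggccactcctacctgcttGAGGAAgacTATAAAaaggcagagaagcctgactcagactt
Il1b, chr2:129371140-129371389, minus strand: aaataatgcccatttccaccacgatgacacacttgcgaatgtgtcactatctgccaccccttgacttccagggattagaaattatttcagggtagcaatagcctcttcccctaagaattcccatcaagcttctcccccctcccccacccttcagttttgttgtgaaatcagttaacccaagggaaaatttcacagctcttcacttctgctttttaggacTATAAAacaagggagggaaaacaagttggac
Nlrp3, chr11:59542436-59542685, plus strand: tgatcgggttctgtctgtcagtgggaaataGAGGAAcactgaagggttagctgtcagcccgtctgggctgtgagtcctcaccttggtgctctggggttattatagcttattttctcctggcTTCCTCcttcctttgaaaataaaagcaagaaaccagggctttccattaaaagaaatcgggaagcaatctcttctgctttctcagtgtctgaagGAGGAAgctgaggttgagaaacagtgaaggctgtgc

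Il1a and Il1b each held the TATA letters at nearly the same place, positions -32 to -27 and -31 to -26, counting the base before the start as -1. Of 32851 promoters of this length in the table, 1.87% had these letters on the gene's strand within 40 to 21 bases of the start, and 12.4% had them anywhere on either strand. Among the members 3 held them, the other being Il18.

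The PU.1 core occurred 3 times in the Nlrp3 window, starting at -220, -129 and -36, with the middle match on the opposite strand. Il1a held it once, starting at -41 and not overlapping the TATA letters. It occurred on either strand in 23.3% of promoters and in 4 of the 10 members, the others being Casp1 and Pycard. The kappaB consensus, searched on both strands, occurred in 3.9% of promoters and in 0 of 10 members.

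The C/EBP motif TTGCNNAA occurred on either strand in 9.56% of promoters and in 2 members, Il1r1 and Pycard. All 10 members matched a RefSeq promoter by symbol. The RefSeq start of Il1b lies 4594 bases from the 5′ end of the authors' Il1b locus, so the window may not be the start their annotation used. The same holds for Il1r2, at 9881 bases, and Il18, at 10668 bases.

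Il1rn, the receptor antagonist, was high in both fat and blood LSC. It stood at 21.8 FPKM (9.37 to 34.2) in AT, 9.74 (5.84 to 13.6) in BL, 2.77 (0.953 to 4.60) in SPL and 2.27 (1.28 to 3.26) in BM LSC, and at 6.05 (3.98 to 8.11) in NBM. The bounds of AT and BL overlapped, and BL and NBM overlapped as well. The folds in the authors' deposited tables were 3.26 ± 0.52 for AT against BM (q 1.96e-08), 2.97 ± 0.63 against SPL (q 4.70e-05) and 1.85 ± 0.48 against NBM (q 0.00135). AT against BL had q 0.0837 in the authors' deposited table and was called under total count scaling (q 0.0316). BL exceeded BM LSC by 2.10 ± 0.43 (q 2.23e-05) and SPL LSC by 1.81 ± 0.55 (q 0.00843) in the authors' deposited tables. BM LSC fell below NBM, at -1.41 ± 0.40 (q 0.00387) in the authors' deposited table.

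Antagonist and ligand RNA did not keep a fixed ratio over the groups. Il1rn over Il1b was 1.61 in NBM (0.953 to 2.72 at 2 SD), 1.24 in BL (0.681 to 2.24), 0.564 in SPL (0.230 to 1.38), 0.429 in BM (0.235 to 0.782) and 0.376 in AT LSC (0.169 to 0.837). The ranges of BM and AT lay below that of NBM, and those of BL and SPL overlapped it. These ranges combine the bounds of the 2 genes as if independent, and the differences between ratios were not tested.

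**Figure D2:**
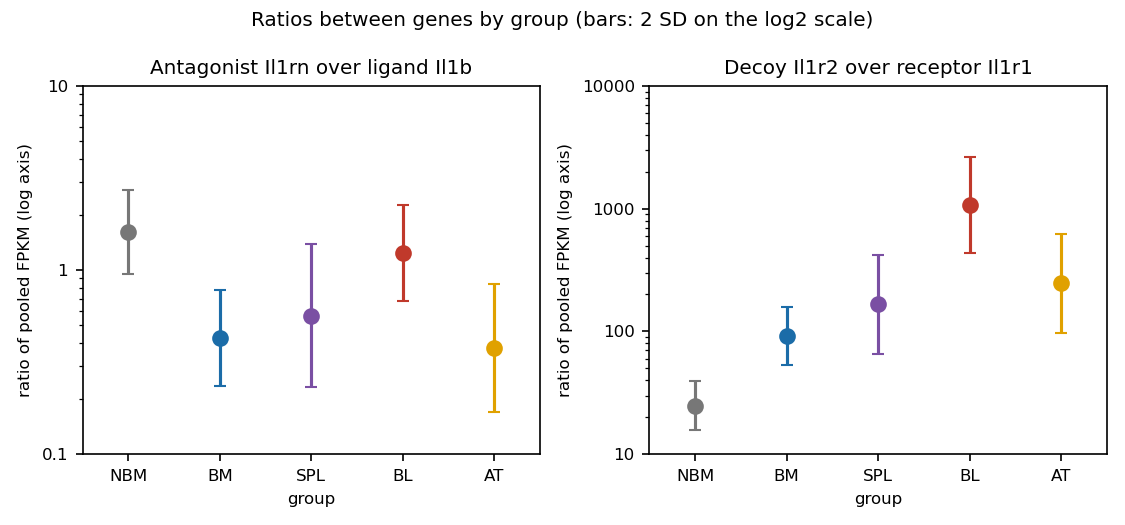
Ratio of pooled FPKM between 2 genes in each group, on log axes, with bars of 2 SD from the authors' bounds. Il1rn over Il1b is 1.61 in NBM and 0.376 in AT LSC, and Il1r2 over Il1r1 is 24.8 in NBM and 1071 in BL LSC.

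Among receptor chains the decoy was abundant and the signalling chain scarce in all LSC groups. Il1r1 stood at 2.00 FPKM (1.24 to 2.77) in NBM, 0.309 (0.168 to 0.451) in BM, 0.244 (0.0572 to 0.430) in AT, 0.107 (0.0243 to 0.191) in SPL and 0.103 (0.0215 to 0.185) in BL LSC. The NBM bounds lay above those of all 4 LSC groups, from 731 estimated fragments against 14.9 to 107. In the authors' deposited tables the 4 tests of Il1r1 against NBM had failed, and BL against SPL was not tested, so no q exists for these differences. None of the 5 comparisons tested among LSC groups was called for Il1r1 in the authors' deposited tables (q 0.0705 to 0.798). Under total count scaling SPL LSC were called lower than BM LSC (q 0.0396).

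Il1r2, the decoy, was highest in blood LSC and lowest in spleen. It stood at 111 FPKM (63.8 to 158) in BL, 60.0 (28.4 to 91.7) in AT, 28.4 (19.9 to 36.8) in BM and 17.8 (8.47 to 27.2) in SPL LSC, and at 49.7 (36.4 to 63.0) in NBM. BL was set apart from BM, SPL and NBM, and AT overlapped all but SPL. The folds in the authors' deposited tables were 1.97 ± 0.37 for BL against BM (q 4.55e-06), 2.64 ± 0.49 for BL against SPL (q 2.14e-06) and 1.16 ± 0.36 for BL against NBM (q 0.0102). AT exceeded SPL LSC by 1.75 ± 0.54 (q 0.00848) there, whereas AT against BM (q 0.0593), BL (q 0.204) and NBM (q 0.745) were not called. AT against BM was called after centring, at 1.56 (q 0.00376), and under both other scalings. BM and SPL LSC were below NBM, at -0.81 ± 0.29 (q 0.0284) and -1.48 ± 0.43 (q 0.00451) in the authors' deposited tables.

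Il1r1 and Il1r2 are neighbours on the plus strand of chromosome 1, at 40225080 to 40316177 and 40076212 to 40125226, with 99853 bases between them. Il1r2 over Il1r1 was 24.8 in NBM (15.6 to 39.6 at 2 SD), 91.7 in BM (53.1 to 158), 166 in SPL (65.1 to 423), 246 in AT (97.2 to 624) and 1071 in BL LSC (436 to 2631). The 4 LSC ranges lay above that of NBM, with no test of the ratio. Il1rap, the shared partner chain (chromosome 16, 26581705 to 26725147), was between 1.49 (0.845 to 2.14) in BM and 2.58 FPKM (1.03 to 4.12) in AT LSC. Its bounds overlapped in all groups and none of its 10 comparisons was called in the authors' deposited tables (q 0.332 to 0.989). The SE of its folds there ran from 0.44 to 0.64. For Il1r2 a fold of 1.08 with an SE of 0.44, AT against BM LSC, was not called (q 0.0593). Changes in Il1rap well above its SE could therefore have been missed.

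Nlrp3, the sensor, was the member called most often, in 8 of 10 comparisons in the authors' deposited tables. It lies on the plus strand of chromosome 11, at 59542686 to 59566956. It stood at 2.73 FPKM (1.39 to 4.08) in AT, 0.812 (0.488 to 1.14) in BL, 0.236 (0.120 to 0.353) in BM and 0.1004 (0.00615 to 0.195) in SPL LSC, and at 0.698 (0.411 to 0.984) in NBM. AT lay above all other groups, BL and NBM overlapped, and BM and SPL lay below both. The folds in the authors' deposited tables were 3.53 ± 0.50 for AT against BM (q 2.19e-10), 4.77 ± 0.76 against SPL (q 2.79e-08), 1.75 ± 0.46 against BL (q 0.00150) and 1.97 ± 0.46 against NBM (q 0.000323). BL LSC exceeded BM LSC by 1.78 ± 0.46 (q 0.00118) and SPL LSC by 3.02 ± 0.74 (q 0.000584) there. BM and SPL LSC were below NBM, at -1.56 ± 0.46 (q 0.00610) and -2.80 ± 0.74 (q 0.00173). The SPL value rests on 11.5 estimated fragments.

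The adaptor and the protease of the inflammasome had a narrower range than the sensor. Pycard (chromosome 7, 127991373 to 127993867, minus strand) stood at 13.2 FPKM (9.27 to 17.2) in NBM, 11.1 (6.91 to 15.2) in BL, 6.99 (3.62 to 10.4) in SPL, 6.92 (3.39 to 10.4) in AT and 6.85 (4.70 to 9.01) in BM LSC. NBM was set apart from BM LSC only, and that pair was its 1 call, at -0.95 ± 0.31 for BM LSC (q 0.0162 in the authors' deposited table). AT against BM had q 0.993. BL against BM had q 0.161 in the authors' deposited table and was called after centring (q 0.0198). Casp1 (chromosome 9, 5298517 to 5307281, plus strand) stood at 16.3 FPKM (8.17 to 24.4) in SPL, 13.4 (8.31 to 18.5) in BL, 10.7 (7.28 to 14.0) in BM and 6.30 (3.17 to 9.43) in AT LSC, and at 9.86 (6.52 to 13.2) in NBM. All its bounds overlapped. AT LSC were called lower than SPL LSC, at -1.37 ± 0.51 (q 0.0366 in the authors' deposited table), a call lost after centring (q 0.279), under total count scaling (q 0.278) and under upper quartile scaling (q 0.325).

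Il18, the other caspase-1 substrate, was highest in NBM and BL LSC. It stood at 1.14 FPKM (0.592 to 1.68) in NBM, 1.06 (0.450 to 1.68) in BL, 0.700 (0.205 to 1.20) in AT, 0.425 (0 to 0.866) in SPL and 0.193 (0.0292 to 0.357) in BM LSC. The BM bounds lay below those of NBM and BL. The folds in the authors' deposited tables were -2.56 ± 0.70 for BM LSC against NBM (q 0.00278) and 2.46 ± 0.74 for BL against BM LSC (q 0.00716). AT against BM had q 0.0800 in the authors' deposited table and was called after centring, at 2.34 (q 0.0231). The BM and SPL values rest on 8.42 and 8.56 estimated fragments.

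**Figure D3:**
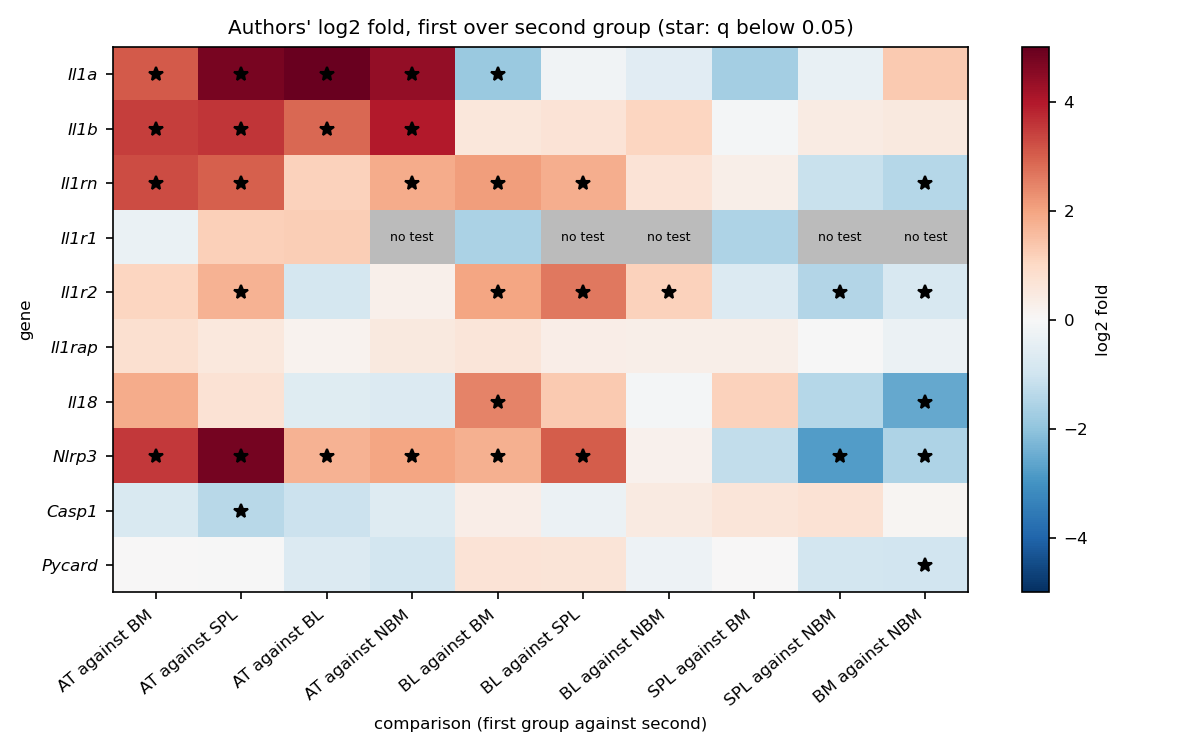
The authors' log2 folds of the 10 genes in the 10 comparisons, as colour from -5 to 5, with a star where q was below 0.05 and grey where no test exists. Stars fill all 4 AT columns for Il1a, Il1b and Nlrp3, and the SPL against BM column holds 0 stars.

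Further genes of the pathway were taken from 6 lists set by function. Of their 72 genes, 62 were tested in AT against BM LSC, with 8 higher and 5 lower in the authors' deposited table. Of all tested genes 7.24% were higher and 15.5% lower there. After centring the list counts became 12 and 2, and 11 and 3 under total count scaling. AT against SPL LSC gave 9 higher and 4 lower of 63 (13 and 3 after centring), beside 7.2% and 17.9% of all genes. AT against BL LSC gave 1 higher and 6 lower of 61, beside 4.01% and 2.51% (2 and 3 after centring, 4 and 2 under total count scaling). AT LSC against NBM gave 11 higher and 7 lower of 64 (19 and 5 after centring), beside 7.94% and 15.5%. BM LSC against NBM gave 9 higher and 11 lower of 62, beside 8.17% and 7.85%. BL against BM LSC gave 16 higher and 6 lower of 60 (23 and 3 after centring), beside 10.5% and 22.8%. These shares, on the authors' scale only, apply to the counts of each list below as well. The list median was 0.16 for AT against BM, where all tested genes had -0.48, and -0.06 for BM against NBM, where all had -0.03.

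Of the other ligands of the family, Il1f9 (interleukin-36 gamma) was above 0.5 FPKM in all groups. Its AT level was 2.73 FPKM against 0.502 in marrow LSC, and the authors' deposited table gave 2.44 ± 0.55 (q 0.000145). It was 1 higher of 2 tested ligands, and the remaining 5 of 6 ligand genes, Il33 included, were at 0.158 FPKM or below in every group. Of other receptors 0 were higher and 1 was lower of 6 in AT against BM LSC in the authors' deposited table. That was Sigirr, which restrains this receptor family, at 2.62 against 6.68 FPKM and -1.35 ± 0.45 (q 0.0164), a call lost after centring (q 0.181). After centring the count was 1 higher and 0 lower. In BM LSC against NBM, Il1rl1, the interleukin-33 receptor, stood at 7.24 against 0.755 FPKM, a fold of 3.26 ± 0.41 (q 1.99e-13), and Il18r1, an interleukin-18 receptor chain, was at 1.22 ± 0.47 (q 0.0466) in the authors' deposited table. Il18r1 lost its call under total count scaling (q 0.0643). Il1rl2, the interleukin-36 receptor, was lower in BM LSC, at -2.18 ± 0.48 (q 0.000104), and in AT it exceeded SPL LSC by 2.53 ± 0.81 (q 0.0126) in the authors' deposited tables.

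Of the signalling parts below the receptor, 1 was higher and 1 lower of 16 in AT against BM LSC, per the authors' deposited table (3 and 0 after centring, 3 and 1 under total count scaling), where 22.8% of all genes were called. Irak2, a kinase recruited to the receptor, was at 4.63 against 1.66 FPKM, a fold of 1.48 ± 0.50 (q 0.0178), and it was also higher in AT than in SPL LSC, at 1.88 ± 0.62 (q 0.0167). Tab1, which activates the kinase TAK1, was at 1.96 against 5.66 FPKM in AT against BM LSC and -1.53 ± 0.43 (q 0.00399) in the authors' deposited table, and lost its call after centring (q 0.0751). Irak2 was also higher in BL than in BM LSC, at 3.97 FPKM in BL and 1.26 ± 0.40 (q 0.0108) in the authors' deposited table. Irak3, which damps the pathway, was higher in BM LSC than in NBM, at 2.03 against 0.538 FPKM and 1.92 ± 0.42 (q 8.90e-05) in the authors' deposited table. Myd88, the adaptor of the receptor, stood at 17.1 to 28.1 FPKM over the groups.

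Sensors other than Nlrp3 gave 4 higher and 1 lower of 13 in AT against BM LSC in the authors' deposited table, the same counts under all 3 other scalings. Nod1, a sensor of bacterial cell wall, was at 2.74 against 0.549 FPKM (fold 2.32 ± 0.47, q 1.68e-05), Nlrc4, which forms an inflammasome with NAIP proteins, at 1.73 against 0.357 (2.28 ± 0.49, q 6.50e-05), and Mefv, which encodes pyrin, at 3.75 against 0.924 (2.02 ± 0.53, q 0.00152). Nlrp6 was the exception, at 0.416 FPKM against 2.33 in BM LSC, for a fold, by the authors' deposited table, of -2.48 ± 0.52 (q 3.85e-05). BL against BM LSC gave 9 higher and 1 lower of 13 there (11 and 1 after centring), and BM LSC against NBM 2 higher and 6 lower of 14. In the latter Nlrp6 was higher by 4.04 ± 0.51 (q 7.08e-13), and Nlrp1a and Nlrp1b, sensors of proteases, were lower by -2.34 ± 0.42 and -2.68 ± 0.55 (q 1.24e-06 and 2.27e-05) in the authors' deposited table. Nlrp1a and Nlrp1b were also lower in AT than in BL LSC, at -2.09 ± 0.62 and -2.53 ± 0.91 (q 0.00617 and 0.0300), the latter not called under total count scaling (q 0.0593). Nlrp1a and Nlrp1b, like the Naip genes, are close copies whose reads may have been shared between them.

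**Figure D4:**
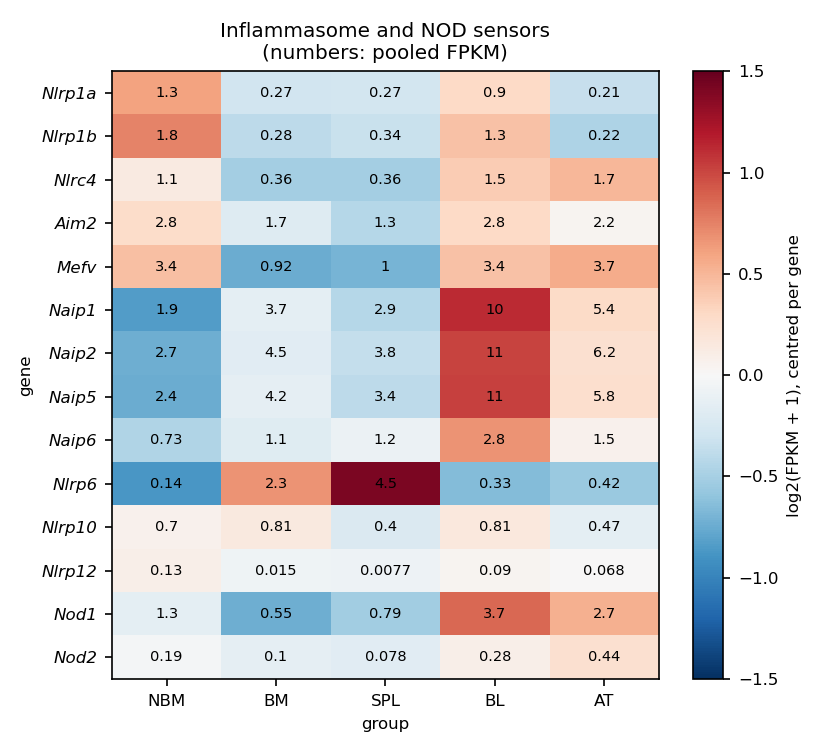
Levels of 14 sensor genes in the 5 groups, with pooled FPKM as numbers and log2(FPKM + 1), centred on each gene's mean over the groups, as colour. Nod1, Nlrc4 and Mefv are higher in AT and BL than in BM LSC, and Nlrp6 is highest in SPL LSC at 4.53 FPKM.

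Partners and effectors of the inflammasome gave 1 higher and 2 lower of 18 in AT against BM LSC in the authors' deposited table (2 and 1 after centring). Ctsb, a lysosomal protease, was at 115 FPKM in fat against 30.6 in marrow LSC, with a log2 difference of 1.91 ± 0.51 (q 0.00172). Casp12, an inflammatory caspase of the same family as Casp1, was at 0.257 against 1.499 FPKM, for a fold, by the authors' deposited table, of -2.54 ± 0.56 (q 0.000111). Mlkl, the pore former of necroptosis, was at -1.23 ± 0.46 (q 0.0379) and lost its call after centring (q 0.292). Ctsb and Casp12 differed from marrow in BL LSC as well, where they stood at 120 and 0.251 FPKM. BL against BM LSC gave 1.98 ± 0.38 for Ctsb (q 7.74e-06) and -2.58 ± 0.46 for Casp12 (q 7.30e-07) in the authors' deposited table. Gsdmd, the pore former cut by inflammatory caspases, was lower in AT than in BL LSC, at 10.4 against 25.2 FPKM and -1.27 ± 0.47 (q 0.0335) in the authors' deposited table, a call lost after centring (q 0.0628). In BM LSC against NBM this list gave 3 higher and 3 lower of 18, per the authors' deposited table. Serpinb1a, an inhibitor of neutrophil serine proteases, was at 317 against 95.2 FPKM (1.73 ± 0.29, q 1.37e-07) and Casp4, the mouse sensor of intracellular lipopolysaccharide, at 11.3 against 5.08 (1.16 ± 0.35, q 0.00777). The near-copies Pydc3 and Pydc4, pyrin-domain genes, were at -3.41 ± 0.45 and -1.93 ± 0.50 (q 9.52e-12 and 0.00134) there.

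Proteases that can cut interleukin-1 family cytokines outside the inflammasome gave 1 higher and 0 lower of 7 in AT against BM LSC in the authors' deposited table. Capn2, a calpain subunit, was at 6.02 against 1.26 FPKM, a fold of 2.25 ± 0.45 (q 1.27e-05), and was also higher in AT than in SPL LSC, at 3.13 ± 0.56 (q 1.02e-06). In BL LSC Capn2 stood at 7.63 FPKM, and BL against BM LSC gave 2.59 ± 0.38 (q 1.32e-09) in the authors' deposited table. Gzmb, which encodes granzyme B, stood at 238 FPKM in BM LSC and 18.4 in NBM, for a fold, by the authors' deposited table, of 3.69 ± 0.32, whereas the neutrophil protease gene Ctsg was lower in BM LSC, at -0.82 ± 0.29 (q 0.0272).

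Some markers of mature myeloid cells were higher in fat than in marrow and spleen LSC, and fewer were higher against blood LSC or NBM. The summed level of 13 macrophage or monocyte markers was 446 FPKM in NBM, 252 in BM, 208 in SPL, 643 in BL and 352 in AT LSC. The sum was highest in BL LSC, and Ly6c2 alone held 303 of it there, 182 in AT LSC and 301 in NBM. In AT against BM LSC 5 of 12 tested were higher and 0 lower in the authors' deposited table, among them Csf1r at 22.9 against 3.38 FPKM (q 1.91e-07). AT against SPL LSC gave 3 higher and 0 lower of 12. AT against BL LSC gave 0 higher and 2 lower of 12, and AT LSC against NBM 1 higher and 5 lower of 12. Vsig4, a resident macrophage marker, was at 0.0170 FPKM or below in every group and at 0 in SPL LSC. The 7 of 8 neutrophil markers found summed to 993 FPKM in NBM, 507 in BM, 401 in SPL, 802 in BL and 2094 in AT LSC. Of these, 3 of 7 were higher and 0 lower in AT against BM LSC in the authors' deposited table, and S100a8 and S100a9 made up most of the sum. Neutrophil markers gave 4 higher and 0 lower of 7 against SPL LSC, and 2 higher and 1 lower of 7 against both BL LSC and NBM. In BL against BM LSC 6 of 12 macrophage or monocyte and 4 of 7 neutrophil markers were higher, where 10.5% of all genes were. In BL against SPL LSC these were 5 of 12 and 5 of 7, where 10.2% were, with 0 lower in either comparison. Higher mature myeloid markers than in marrow or spleen LSC were thus not particular to fat. The part of either list in the results for Il1a, Il1b, Il1rn and Nlrp3 was not tested.

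Of tissue cell markers, most of those of stroma were highest in fat. The 8 stromal markers summed to 29.5 FPKM in AT LSC and to 1.10 to 2.86 in the other groups, with 6 of 7 tested higher and 0 lower in AT against BM LSC in the authors' deposited table. Dcn, a matrix proteoglycan gene, held 20.96 of that sum. Not all stromal markers went this way. Col1a2 was highest in SPL LSC, at 1.06 FPKM against 0.425 in AT LSC. Pdgfrb was lowest in AT LSC, at 0.502 against 0.739 to 2.21 in the other groups, and its test against BM LSC had failed. The 6 adipocyte markers summed to 0.693 FPKM in AT LSC and to 0.0631 to 0.139 in the other groups. In AT LSC Cfd stood at 0.349, Cidec at 0.263 and Adipoq at 0.0304. In AT against BM LSC 1 of 2 tested was higher, Cidec (q 0.0114), and 0 lower in the authors' deposited table. The 6 endothelial markers summed to 14.1 in NBM, 11.4 in BM, 8.43 in SPL, 24.6 in BL and 14.3 in AT LSC. The 5 mesothelial markers summed to 0.425, 0.256, 0.314, 3.00 and 1.20 in the same order, so both sums were highest in BL LSC. Pecam1 held 23.99 of the endothelial sum in BL and 12.9 in AT LSC, and Krt8 held 2.73 of the mesothelial sum in BL LSC. In AT against BL LSC 2 of 5 tested endothelial markers were higher and 0 lower in the authors' deposited table. These were Cdh5, at 0.276 against 0.00106 FPKM (q 0.0126), and Tek, at 0.272 against 0.0175 (q 1.83e-05). Progenitor markers gave 0 higher and 5 lower of 7 tested in AT against BM LSC in the authors' deposited table, where 15.5% of all genes were lower. AT LSC gave 0 higher and 2 lower of 8 against SPL LSC, 0 and 0 of 8 against BL LSC and 1 and 4 of 8 against NBM. BL against BM LSC gave 1 higher and 4 lower of 7, so lower progenitor markers than in marrow LSC were not particular to fat. The part of these cells in the results was not tested.

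Genes with a profile like that of a member were ranked over the 5 pooled values, among 3364 genes reaching 10 FPKM, by the distance between centred log2(FPKM + 1) profiles. Nearest to Il1b were Rab20 at a distance of 0.56, Cxcl3 at 0.62, Snord47 at 0.69, Cxcl2 at 0.86 and Stfa3 at 1.09. Rab20 stood at 29.3 FPKM in AT LSC and 1.71 to 5.56 in the other groups, and the neutrophil chemokine gene Cxcl3 at 46.4 and 1.57 to 5.52. Snord47, a short RNA for which FPKM is imprecise, was listed at 0 outside fat. Nearest to Il1r2 were Saa3 at 0.08, C3 at 0.21, Myo1f at 0.24 and Sqrdl at 0.32. Saa3, an acute phase gene, was at 13.5 FPKM in BL and 1.48 in SPL LSC, the same highest and lowest groups as Il1r2. Nearest to Nlrp3 were Plk2 at 0.28, Rilpl2 at 0.29, Pfn1 at 0.38, Ltf at 0.39 and Gpr132 at 0.52. With 5 values per gene such ranks are a description only.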

How the data were processed

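Per the submitters' processing notes, reads were trimmed with Trimmomatic 0.32, and Cufflinks 2.0.2 and Cuffdiff were used on mm10. Which aligner and which annotation served is not given in the sources used here. As FPKM with lower and upper bounds the authors deposited 1 pooled value per group of 3 libraries. An estimated count per gene and group was deposited likewise by the authors, per the file headers. Their tables of 10 comparisons hold the log2 fold, a test statistic, and p-values and q-values, per the file headers. The deposited q equalled a Benjamini-Hochberg adjustment over all 10 comparisons to within 1.70e-06. Member FPKM were the same in all tables, and 95 of 95 standard errors matched the bounds within 1%.

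Planned tests per library could not be run on pooled values, so the authors' tests were used. Alternatives rescaled folds by a log2 shift with the SE kept, or changed adjustment, threshold or filter, in Python 3.11.15 with scipy 1.17.1, after a check on simulated data. File starts count from 0, so 1 was added. The depth is given in the report, and pooling leaves its precision per library unknown. Named genes beyond the 10 are up to 3 per list, direction and comparison with the smallest q in AT against BM, SPL and BL LSC and BM LSC against NBM, and the 5 nearest profiles of Il1b, Il1r2 and Nlrp3, predicted genes skipped. Of these profiles 1 is not reported here. Others were chosen after their values were seen. Members and lists were chosen with earlier results of these data known.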

Additional observations from a re-analysis of the deposited data

How the results depend on the processing

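All 33 called member folds kept their sign under every alternative, and 28 kept their call under every alternative that tested them. The number of members called moved by over 1.5 times in few cases. For BL LSC against NBM it was 1, but 3 after centring (Il1b and Il1rn added), 3 under upper quartile scaling, 2 with adjustment within the comparison and 0 at q below 0.01. Total count scaling gave 2 in place of 0 for SPL against BM LSC and 4 in place of 2 for SPL LSC against NBM. With only genes at an FPKM of 1 or more in either group, BL against BM LSC gave 3 of 7 tested in place of 5 of 10. SPL LSC against NBM gave 1 of 7 in place of 2 of 9. The calls that dropped out were of genes removed by this filter, Il1a and Nlrp3 in the former and Nlrp3 in the latter. BM LSC against NBM gave 3 in place of 5 at q below 0.01, and also 3 with a log2 fold of 1 or more. The pathway genes called were 4 in place of 7 for AT against BL LSC under upper quartile scaling and 3 in place of 1 for SPL against BM LSC under total count scaling. In the latter the direction turned, from 1 higher and 0 lower to 0 higher and 3 lower, and centring and upper quartile scaling gave 0 higher and 1 lower. Total count scaling also gave 4 in place of 2 receptor signalling genes for AT against BM LSC and 1 in place of 2 sensors for AT against BL LSC. Apart from the FPKM filter, the cause of these moves was not tested.

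The log2 of the highest over the lowest group with a pseudocount of 1 was 2.57 for Il1a, 3.63 for Il1b, 2.80 for Il1rn, 1.44 for Il1r1, 0.52 for Il1rap, 0.84 for Il18 and 1.76 for Nlrp3. With 0.1 in place of 1 it was 4.37 for Il1a, 3.37 for Il1r1, 2.08 for Il18 and 3.82 for Nlrp3. CPM (estimated counts scaled to library size) was also used, with the pseudocount of 1 and the highest and lowest groups kept as ranked by FPKM. The log2 ratio was then 4.57 for Il1a, 4.13 for Il1b, 3.60 for Il1rn, 3.70 for Il1r1, 1.08 for Il1rap, 1.45 for Il18 and 4.49 for Nlrp3. By CPM the group with the highest level stayed the same for all 10 genes. The lowest became SPL for Il1a, Il1r1, Il1rap and Pycard, so the CPM ratios given for Il1a, Il1r1 and Il1rap do not use their lowest group. No paired analysis was possible because the columns hold pooled groups without replicate numbers, and leaving out replicates, edgeR and DESeq2 were not run for the same reason. Depth limits the values under 20 estimated fragments, Il18 in BM and SPL and Il1a, Il1r1 and Nlrp3 in SPL.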
